A study of Ovis aries with 2 samples.

Results

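The germ cell glycolysis enzymes described here are 5 genes, chosen by symbol from the 27054 genes listed in both count matrices, and all 5 were found: HK2 (ENSOARG00000012909), GPI (ENSOARG00000004502), GAPDHS (ENSOARG00000004849), PGAM2 (ENSOARG00000013633) and LDHC (ENSOARG00000009531). They were followed in single testis cells of sheep aged 8 months, in 1 library labelled ZEA0.75 and 1 library labelled Control. ZEA commonly stands for zearalenone, a fungal toxin that binds oestrogen receptors. The labels give neither the unit of the number 0.75 nor the route of exposure, strain or number of animals. Each library was made with a 3' droplet kit that counts RNA molecules by unique molecular identifiers (UMIs), so levels below are UMIs of a gene scaled to a total of 1000000 UMIs of its cell class (CPM).

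Glycolysis splits glucose into pyruvate. Hexokinases such as HK1 and HK2 phosphorylate glucose, glucose-6-phosphate isomerase (GPI) turns the product into fructose-6-phosphate, glyceraldehyde-3-phosphate dehydrogenase (GAPDH, or GAPDHS in sperm) makes the first high-energy phosphate, phosphoglycerate mutase (PGAM1 or PGAM2) moves a phosphate group, and lactate dehydrogenase (LDHA, LDHB or LDHC) regenerates NAD+. Germ cells that pass through meiosis replace several of these enzymes with isoforms of their own. GAPDHS and LDHC are known from mouse as sperm isoforms needed for motility, and GAPDHS is bound to the fibrous sheath of the tail. PGAM2 is the muscle-type mutase, HK2 is an inducible hexokinase of many tissues, and GPI has no germ cell copy. Later stages of sperm formation also stop transcribing step by step, so a spermatid's RNA holds messages made earlier.

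Each group has 1 library. No difference between the libraries has a replicate check, no p-value was computed, and the treatment cannot be told apart from whatever else differed between the 2 libraries. Intervals are 95% and cover counting error only. The ZEA library held 22148456 UMIs in 8809 barcodes and the control library 53044981 in 7030, and 15 barcodes were shared. The median kept cell had 1405.5 UMIs in the ZEA library and 4121 in the control library. The file headers name Cell Ranger 3.1.0 for the ZEA matrix and 5.0.0 for the control matrix, so the software and the group cannot be told apart. Cells were clustered without the 5 enzymes and without other energy genes, and clusters were named from stage and cell type markers. Late spermatocyte-like cells, in meiosis, were 4 in the ZEA library and 1009 in the control library. Round spermatid-like cells were 1204 in the ZEA and 1315 in the control library, and elongating spermatid-like cells 929 in the ZEA and 1606 in the control library. Somatic classes held 4154 ZEA cells, 3003 of them endothelial-like, and 179 control cells, 120 of them Sertoli-like. Unnamed clusters held 28.4% of ZEA cells and 39.2% of control cells.

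In the control library, where the 3 germ stages could be followed, 3 of the enzymes were higher with each step and LDHC was lower. HK2 stood at 4.29 CPM (interval 3.16 to 5.69) in late spermatocyte-like cells, 19.0 (17.1 to 21.0) in round and 81.0 (76.3 to 85.9) in elongating spermatid-like cells. GPI stood at 48.6 CPM (44.6 to 52.9), 334 (326 to 342) and 838 (822 to 853) in the same order. These intervals did not overlap between any of the stages for either gene.

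GAPDHS followed the same order, with 153 CPM (146 to 160) in late spermatocyte-like, 1052 (1038 to 1067) in round and 1874 (1851 to 1897) in elongating spermatid-like cells of the control library. LDHC ran the other way, with 1480 CPM (1457 to 1502), 143 (138 to 149) and 72.8 (68.4 to 77.5). PGAM2 was high at all 3 stages, with 1316 CPM (1295 to 1337), 933 (920 to 947) and 1048 (1031 to 1066), so its order was late spermatocyte-like, elongating, round. LDHC was highest in meiosis and lowest at the end, and GAPDHS, GPI and HK2 were highest at the end.

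**Figure D1:**
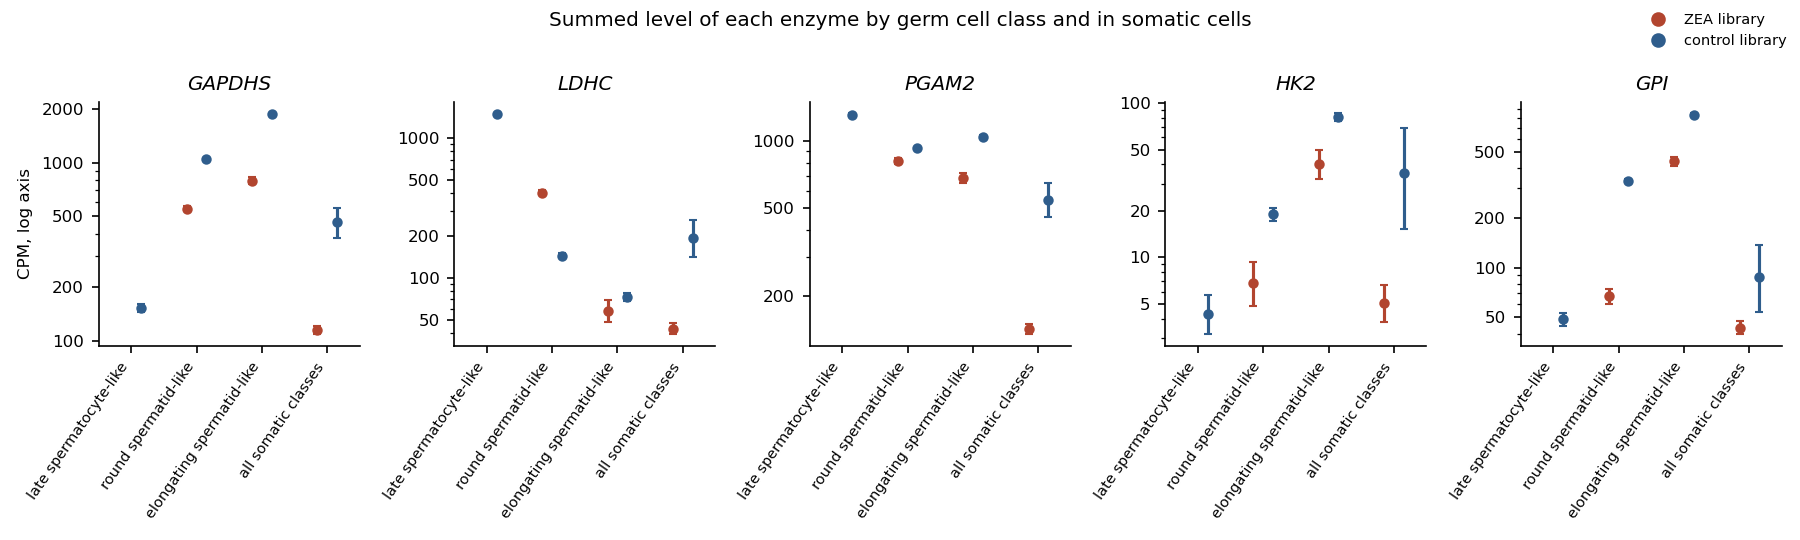
Level of each enzyme in CPM on a log axis, in late spermatocyte-like, round and elongating spermatid-like cells and in all somatic classes together. Points are sums over the cells of a class in 1 library (ZEA left, control right; the ZEA library has too few late spermatocyte-like cells) and bars are 95% Poisson intervals. GPI goes from 48.6 to 838 over the control stages while LDHC goes from 1480 to 72.8.

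Spermatid classes together were set against late spermatocyte-like cells in the control library. The log2 ratio was 3.38 for HK2 (interval 2.97 to 3.83), 3.48 for GPI (3.36 to 3.61), 3.19 for GAPDHS (3.12 to 3.26), -0.42 for PGAM2 (-0.45 to -0.40) and -3.70 for LDHC (-3.75 to -3.65). Thus 4 of 5 enzymes differed by at least 2-fold, 3 higher and 1 lower in spermatids, where 73.9% of the 10307 genes tested did so, 34.0% higher and 39.9% lower. The share of all genes past 2-fold was so high that the count of enzymes says little by itself. The median log2 ratio was 3.19 over the 5 enzymes and -0.47 over all genes tested, and scaled to that median the PGAM2 ratio had the other sign (0.05).

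Between the spermatid stages of the control library, the log2 ratio of elongating over round was 2.09 for HK2 (1.92 to 2.27), 1.33 for GPI (1.28 to 1.37), 0.83 for GAPDHS (0.81 to 0.86), 0.17 for PGAM2 (0.14 to 0.20) and -0.98 for LDHC (-1.08 to -0.87). Past 2-fold were 2 of 5, both higher, against 41.8% of 9246 genes in either direction and 9.97% higher. In the ZEA library the same ratio was 2.55 for HK2 (1.99 to 3.14), 2.70 for GPI (2.53 to 2.88), 0.52 for GAPDHS (0.44 to 0.61), -0.25 for PGAM2 (-0.33 to -0.16) and -2.81 for LDHC (-3.09 to -2.55). Past 2-fold were 3 of 5, 2 higher and 1 lower, against 60.0% of 7133 genes, 15.9% higher and 44.1% lower. HK2, GPI and GAPDHS were higher in elongating cells of each library, LDHC was lower in each, and PGAM2 had opposite signs in the libraries. The median of all genes was -0.77 in the ZEA and -0.53 in the control library, so the enzymes that were higher in elongating cells ran against most genes. Scaled to that median, PGAM2 was 0.52 in the ZEA library and 0.70 in the control library.

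The isoform pairs showed how far each switch had gone. The share of a pair's UMIs is compared between cells and not read as which isoform is more abundant, since genes differ in how well 3' ends are captured. GAPDHS gave 99.4% of GAPDHS plus GAPDH UMIs in control late spermatocyte-like cells (interval 98.9 to 99.7). In round spermatid-like cells it gave 97.5% in the ZEA library (96.9 to 98.0) and 99.8% in the control library (99.8 to 99.9), and in elongating ones 97.9% in the ZEA library (97.1 to 98.5) and 99.8% in the control library (99.7 to 99.8). In 29 control spermatogonia-like cells, which precede meiosis, the share was 22.2% (16.8 to 28.5). The share in late spermatocyte-like cells goes with a low GAPDH level, since GAPDHS there lay below its level in somatic cells of the same library in CPM. What part of that GAPDHS is background was not tested.

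GAPDH, the form used by somatic cells, stood at 764 CPM in control spermatogonia-like cells (651 to 892) and at 0.894 CPM in control late spermatocyte-like cells (0.429 to 1.64). It was 14.3 CPM in ZEA and 1.82 CPM in control round spermatid-like cells, and 17.4 CPM in ZEA and 3.80 CPM in control elongating ones. In somatic classes of at least 20 cells it ran between 613 and 894 CPM in the ZEA library and between 818 and 841 CPM in the control library. Summed over whole classes, GAPDH thus stood at 613 CPM or more in each of these somatic classes. It stood at 17.4 CPM or less in the germ classes from late spermatocyte-like cells on. Single clusters differed from their class. Among ZEA endothelial-like cells GAPDH was 913 CPM in cluster 21 (1893 cells), 389 CPM in cluster 23 (349 cells) and 152 CPM in cluster 15 (761 cells). GAPDHS in cluster 15, at 398 CPM (345 to 456), was above its GAPDH (120 to 189).

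LDHC and LDHA did not exchange places in the same way. LDHA stood at 629 CPM (614 to 644) in control late spermatocyte-like cells, above every somatic class, which reached 385 CPM in ZEA peritubular myoid-like cells. It was lower in spermatids together with LDHC, with 75.9 CPM in ZEA and 33.6 CPM in control round spermatid-like cells. The LDHC share of LDHC plus LDHA UMIs was 70.2% in control late spermatocyte-like cells (69.6 to 70.8), 84.3% in ZEA (82.9 to 85.6) and 81.0% in control (79.6 to 82.3) round cells, and 77.8% in ZEA (70.6 to 84.1) and 72.5% in control (70.1 to 74.9) elongating cells. Of these, the shares in ZEA and control elongating cells and in control round cells rest on LDHC levels not above the somatic ones in CPM. What part of those levels is background was not tested, so these shares are not read as the isoform state of those cells. In the somatic classes of the ZEA library it ran from 9.09% in leukocyte-like cells (2.53 to 21.7) to 31.4% in stromal fibroblast-like cells (23.1 to 40.5). LDHA was 4.34 lower on the log2 scale in spermatids than in late spermatocyte-like cells (ratio -4.34, -4.43 to -4.24), close to the -3.70 of LDHC, so the levels of both dehydrogenases were below their meiotic level. LDHB and PGAM1 matched no symbol, so the LDH share leaves out LDHB and PGAM2 has no pair here.

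HK2 gave a small share of its pair's UMIs at every stage. It held 5.27% of HK2 plus HK1 UMIs in control late spermatocyte-like cells (3.91 to 6.93), 1.42% in ZEA (1.01 to 1.94) and 3.59% in control (3.24 to 3.97) round cells, and 7.23% in ZEA (5.82 to 8.87) and 11.0% in control (10.4 to 11.6) elongating cells. HK1, the widely used hexokinase with a known sperm form, itself stood at 77.1 CPM in control late spermatocyte-like cells. It was 473 CPM in ZEA and 510 CPM in control round cells, and 513 CPM in ZEA and 656 CPM in control elongating cells. For phosphoglycerate kinase, the step after GAPDHS, PGK2 gave at least 99.3% of PGK2 plus PGK1 UMIs in each of these germ classes and 50.9% in ZEA endothelial-like cells (45.7 to 56.1). PGK1 and PGK2 are similar copies, and how reads shared between them were counted is not given.

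**Figure D2:**
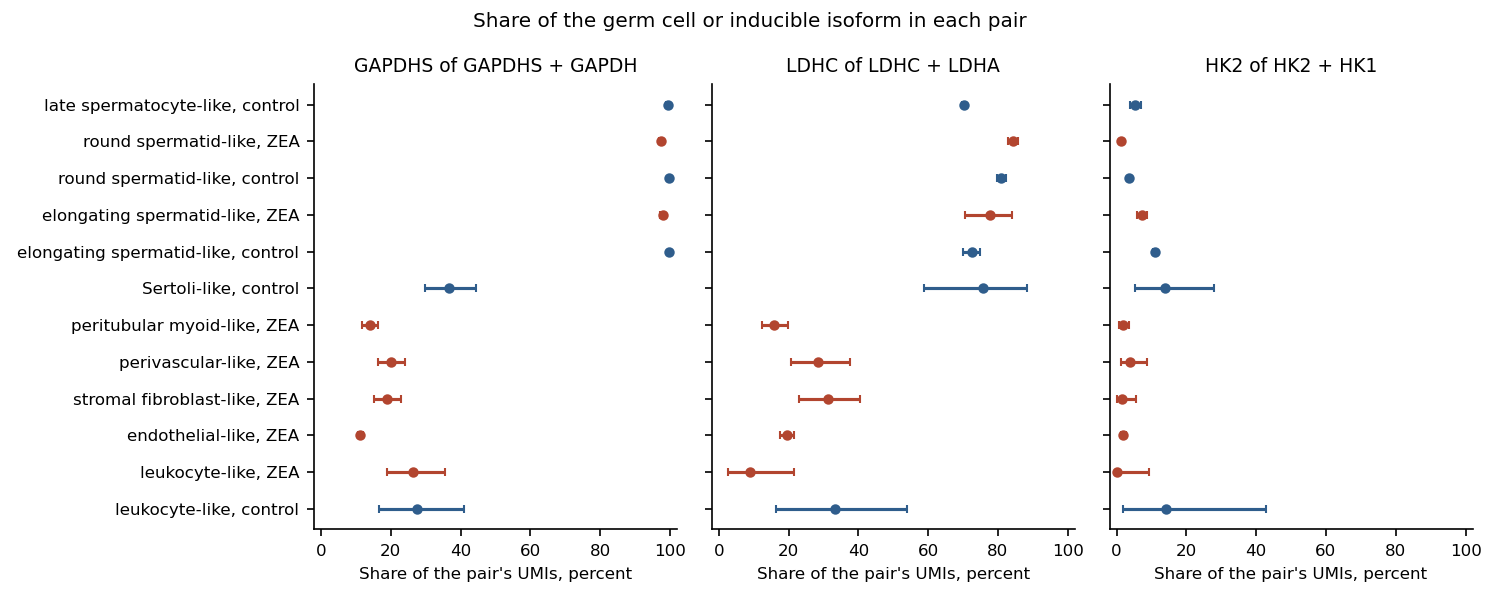
Share of GAPDHS, LDHC and HK2 in the UMIs of each isoform pair, in percent, by class and library (red ZEA, blue control), with 95% Clopper-Pearson intervals. GAPDHS lies between 97.5 and 99.8% in the germ classes shown and between 11.2 and 36.8% in the somatic classes, while LDHC in Sertoli-like cells lies within the germ range. Single clusters, among them endothelial-like cluster 15 with more GAPDHS than GAPDH UMIs, are not drawn.

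The order of levels over classes of at least 20 cells placed elongating spermatid-like cells first for HK2, GPI and GAPDHS in each library. In the control library the elongating HK2 level of 81.0 CPM overlapped in its interval with that of Sertoli-like cells, 43.9 CPM (16.1 to 95.5, from 6 UMIs). In the ZEA library HK2 in round spermatid-like cells, 6.82 CPM (4.85 to 9.33), lay within the somatic range. That range ran from 0 UMIs in leukocyte-like cells (interval up to 26.3 CPM) to 10.5 CPM in perivascular-like cells. GPI, 67.2 CPM (60.6 to 74.2), lay within the somatic range of 36.4 to 108 CPM. LDHC in ZEA elongating cells, 57.9 CPM (48.1 to 69.1), also lay within its somatic range of 28.5 to 87.3 CPM. These 3 levels of whole classes were thus not above the somatic range in CPM, and what part of them is background was not tested. LDHC in control elongating cells was below the 205 CPM of control Sertoli-like cells (136 to 296), and in control round cells it overlapped with that interval. Sertoli-like cells were shallower, with a median of 879 UMIs against 13474 in control round and 7292 in control elongating cells. At unequal depth, levels in CPM cannot say what part of this LDHC is background, which was not tested. Control Sertoli-like cells also had a median mitochondrial share of 9.52%. It was 0.387% in control late spermatocyte-like, 0.0233% in round and 0.0252% in elongating cells. GAPDHS in control late spermatocyte-like cells was likewise below the 490 CPM of control Sertoli-like cells (380 to 622). The same holds in late spermatocyte-like cells for HK2, 4.29 CPM, and for GPI, 48.6 CPM, which stood at 102.4 CPM in Sertoli-like cells (56.0 to 172). HK2 in control round cells, 19.0 CPM, overlapped with the Sertoli-like interval. The ratios of HK2, GPI and GAPDHS over late spermatocyte-like cells, and of HK2 over round cells, therefore start from levels not above somatic ones in CPM. They are not exact folds of expression.

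RNA of germ cell isoforms was thus found in somatic classes of both libraries. Spermatid marker RNA was found in ZEA endothelial-like, peritubular myoid-like, perivascular-like and stromal fibroblast-like cells as well. Among these, HMGB4 ran from 909 CPM in endothelial-like to 1849 CPM in stromal fibroblast-like cells. SPEM1 ran from 190 CPM in endothelial-like to 329 CPM in perivascular-like cells. The origin of this RNA was not tested. The proportions of the isoforms varied between the somatic classes, and no intervals were made for them. PGAM2 UMIs numbered 1.19 per GAPDHS UMI in ZEA peritubular myoid-like cells, 1.34 in perivascular-like, 1.54 in stromal fibroblast-like and 1.22 in endothelial-like cells, and LDHC UMIs were 0.504, 0.382, 0.463 and 0.356 in the same order. Leukocyte-like cells, with 31 GAPDHS UMIs in the ZEA and 16 in the control library, had 0.806 PGAM2 UMIs per GAPDHS UMI in the ZEA and 2.06 in the control library, and 0.129 LDHC UMIs in the ZEA and 0.562 in the control library. Control Sertoli-like cells had 1.10 PGAM2 and 0.418 LDHC UMIs per GAPDHS UMI. In ZEA germ classes PGAM2 per GAPDHS was 1.48 in round and 0.864 in elongating cells, and LDHC per GAPDHS was 0.737 in round and 0.0729 in elongating cells. HK1 ran from 0.552 per GAPDHS UMI in control Sertoli-like to 3.01 in ZEA peritubular myoid-like cells. Depth differed as well: control Sertoli-like cells had a median of 879 UMIs and late spermatocyte-like cells 9981, and the part of depth in these levels was not tested.

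Germ classes were also set against all somatic classes within each library. The enzymes were chosen with earlier results of these data known, so this comparison describes them and cannot check the name given to the group. In the ZEA library the log2 ratio was 1.63 for HK2 (1.16 to 2.13), 1.94 for GPI (1.78 to 2.09), 2.41 for GAPDHS (2.32 to 2.50), 2.45 for PGAM2 (2.36 to 2.53) and 2.86 for LDHC (2.71 to 3.01). All 5 passed 2-fold upward, against 36.8% of 10921 genes upward and 76.8% in either direction. In the control library it was -0.04 for HK2 (-1.02 to 1.18), 2.24 for GPI (1.61 to 2.95), 1.22 for GAPDHS (0.94 to 1.51), 0.96 for PGAM2 (0.71 to 1.23) and 1.25 for LDHC (0.82 to 1.71). There 3 of 5 passed, all upward, against 17.8% of 10582 genes upward, 38.8% downward and 56.6% in either direction. GPI, GAPDHS and LDHC were past 2-fold in each library, while the HK2 interval of the control library, from 8 somatic UMIs, spans both directions.

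Of all GAPDHS UMIs, 67.9% in the ZEA library (66.8 to 69.0) and 94.5% in the control library (94.3 to 94.7) lay in named germ classes, which held 24.4% of ZEA and 58.1% of control cells. For LDHC the same shares were 71.8% in the ZEA library (70.2 to 73.3) and 76.9% in the control library (76.4 to 77.4). Unnamed clusters gave a further 22.9% of LDHC UMIs in the control library (22.4 to 23.4). Among them, cluster 11, with 130 deep control cells in which early and late spermatocyte markers scored alike, had LDHC at 1836 CPM (1785 to 1888) but PGAM2 at only 603 CPM (574 to 634). In late spermatocyte-like cells PGAM2 was 1316 CPM. GAPDHS was 149 CPM in cluster 11 and 153 CPM in late spermatocyte-like cells. LDHC was thus higher in cluster 11 and PGAM2 in late spermatocyte-like cells. PGAM2 was higher still in elongating cluster 2 (1885 CPM, 1828 to 1943) and unnamed cluster 6 (1388 CPM, 1305 to 1474) of the control library.

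Single cells were thinned to 5000 UMIs each so that depth was equal, which left out every shallower cell. Of 901 late spermatocyte-like control cells, 46.5% (43.2 to 49.8) held LDHC without GAPDHS, 53.5% held both and 0 held GAPDHS alone (interval up to 0.409%). In round spermatid-like cells GAPDHS alone was found in 19.0% of 421 ZEA cells (15.4 to 23.1) and in 50.9% of 1272 control cells (48.1 to 53.6), and both in 75.1% of ZEA cells (70.6 to 79.1) and 48.8% of control cells (46.0 to 51.6). In elongating spermatid-like cells GAPDHS alone was found in 82.9% of 41 ZEA cells (67.9 to 92.8) and in 70.9% of 949 control cells (67.9 to 73.8). Cells with GAPDHS alone were thus not seen among the late spermatocyte-like cells used and were the majority of the elongating cells used from each library.

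ZEA endothelial-like cells, which should hold neither message, were set beside these at the same depth. Only 482 of the 3003 were deep enough, 444 of them in cluster 21, where GAPDHS stood at 79.3 CPM. In endothelial-like cluster 15 (761 ZEA cells, cluster median 632 UMIs) it stood at 398 CPM. The cells used thus do not stand for the whole class, and the origin of their GAPDHS and LDHC was not tested. Of the 482 cells, 14.9% (11.9 to 18.4) held GAPDHS alone, 5.81% (3.89 to 8.29) LDHC alone, 1.87% both and 77.4% neither. These shares come from the ZEA library only. In the control library the GAPDHS level of late spermatocyte-like cells lay below that of Sertoli-like cells in CPM. Sertoli-like cells were shallower, with a median of 879 UMIs against 9981 in late spermatocyte-like cells. What part of GAPDHS in late spermatocyte-like cells is background was not tested. The median thinned late spermatocyte-like cell held 7 LDHC, 6 PGAM2 and 1 GAPDHS UMIs. The median round spermatid-like cell held 3 GAPDHS, 2 LDHC and 4 PGAM2 UMIs in the ZEA library and 5 GAPDHS, 0 LDHC and 5 PGAM2 UMIs in the control library. The median elongating cell held 7 GAPDHS, 3 GPI and 0 LDHC UMIs in the ZEA library and 8 GAPDHS, 4 GPI and 0 LDHC UMIs in the control library.

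**Figure D3:**
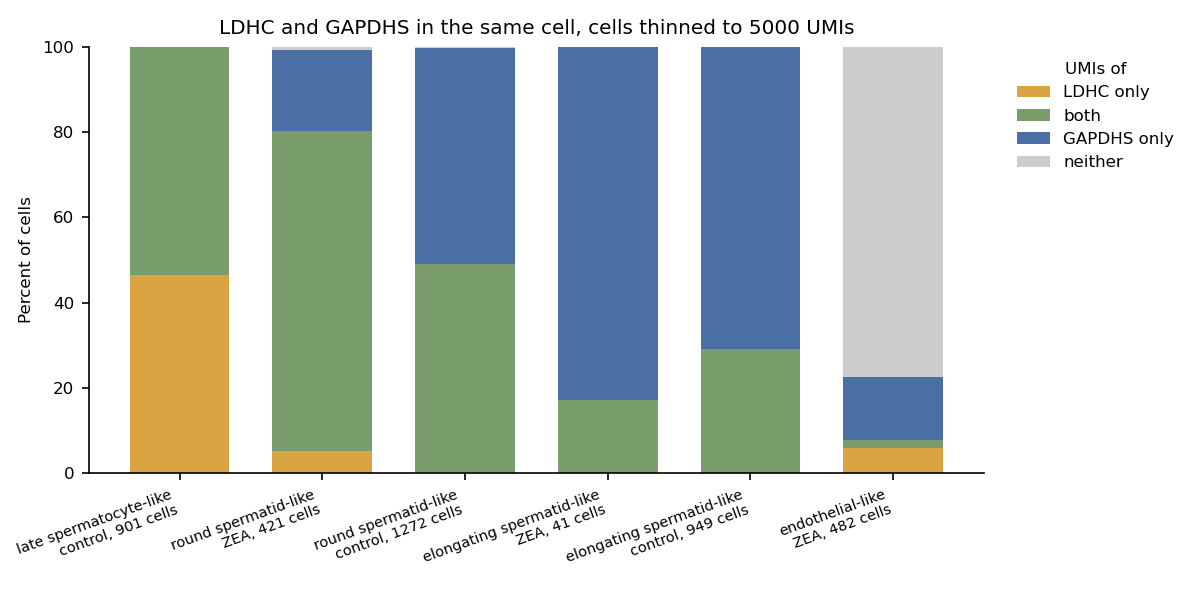
Percent of cells with UMIs of LDHC only, of both LDHC and GAPDHS, of GAPDHS only or of neither, after thinning each cell to 5000 UMIs. Cells with GAPDHS only are 0% in late spermatocyte-like cells and 82.9% (ZEA) and 70.9% (control) in elongating spermatid-like cells. The deeper ZEA endothelial-like cells are drawn beside them.

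Thinned to 500 UMIs, which kept every cell, the shares were lower but kept the stage order. GAPDHS was detected in 8.23% of late spermatocyte-like cells (76.8% unthinned, median 9981 UMIs). It was detected in 17.6% of ZEA and 41.1% of control round cells (unthinned 57.8% in ZEA cells with a median of 1853 UMIs and 99.7% in control cells with a median of 13474), and in 26.0% of ZEA and 66.3% of control elongating cells (unthinned 57.6% in ZEA cells with a median of 1791 UMIs and 99.2% in control cells with a median of 7292). ZEA endothelial-like cells gave 9.06% thinned (24.6% unthinned, median 1843 UMIs), about the share in late spermatocyte-like cells. The 2 classes were not alike among the deeper cells thinned to 5000 UMIs. There 53.5% of 901 control late spermatocyte-like cells held GAPDHS with LDHC and 0% held GAPDHS alone. Of 482 ZEA endothelial-like cells, 1.87% held both and 14.9% GAPDHS alone, with 2521 shallower cells left out. Why the depths differ in this was not tested. At 500 UMIs GPI was detected in 3.07% of ZEA round cells (2.17 to 4.21, 19.4% unthinned) and in 2.60% of ZEA endothelial-like cells (2.06 to 3.23, 9.26% unthinned). These thinned shares overlapped in their intervals for the round class as a whole. Its clusters differed, with GPI at 26.2 CPM (21.3 to 31.9) in cluster 16 (370 cells) and 128 CPM (112 to 145) in cluster 19 (817 cells). ZEA endothelial-like cells stood at 36.4 CPM (32.4 to 40.7).

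Between the libraries, ZEA round spermatid-like cells had more LDHC and less HK2, GPI and GAPDHS than control ones. HK2 stood at 6.82 CPM in ZEA and 19.0 CPM in control round cells, a log2 ratio of -1.48 (-1.99 to -1.0). GPI stood at 67.2 CPM in ZEA and 334 CPM in control round cells, a ratio of -2.31 (-2.47 to -2.16). Since HK2 and GPI in ZEA round cells and LDHC in control round cells were not above somatic levels in CPM, their ratios are not exact folds of expression. GAPDHS stood at 552 CPM in ZEA and 1052 CPM in control round cells (-0.93, -0.99 to -0.88). PGAM2 stood at 815 CPM in ZEA and 933 CPM in control round cells (-0.20, -0.24 to -0.15), and LDHC at 407 CPM in ZEA and 143 CPM in control round cells (1.50, 1.42 to 1.58).

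Past 2-fold in round cells were 3 of 5 enzymes, 1 higher and 2 lower in ZEA, against 29.0% of 9114 genes, with 20.6% higher and 8.32% lower. The median log2 ratio over the 5 enzymes was -0.93 and over all genes tested 0.30. LDHA, the partner of LDHC, was also higher in ZEA round cells (1.17, 1.00 to 1.35). HK1 and PGK2 differed little (-0.11, -0.17 to -0.05, and 0.18, 0.07 to 0.28).

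The round class was made of different clusters in the libraries. In the ZEA library cluster 19 (817 cells, median 1209 UMIs) and cluster 16 (370 cells, median 9803 UMIs, 66.1% of the class's UMIs) held most of it, and in the control library clusters 4 (680 cells) and 7 (628 cells). A cluster mostly of 1 library may be that library and not a stage. Markers of late spermatocytes summed to 1147 CPM in ZEA and 775 CPM in control round cells, 8 of 10 measured markers being detected in each and OVOL1 and OVOL2 having 0 UMIs. Markers of elongating spermatids summed to 8068 CPM in ZEA and 13396 CPM in control round cells, 10 of 10 being detected in each. Peritubular myoid markers summed to 167 CPM in ZEA (7 of 8 detected, DES at 0) and 10.8 CPM in control round cells (6 of 8, CNN1 and MYL9 at 0). Endothelial ones summed to 21.3 CPM in ZEA (9 of 9 detected) and 4.84 CPM in control round cells (8 of 9, EGFL7 at 0). The part of the stage markers, of the depth and of the somatic markers in these ratios was not tested.

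Set against control cluster 7 alone, the control cluster with fewer elongating markers, deep ZEA cluster 16 had log2 ratios of -1.63 for HK2 (-2.91 to -0.56), -2.39 for GPI (-2.70 to -2.09), -0.80 for GAPDHS (-0.87 to -0.73), -0.21 for PGAM2 (-0.27 to -0.15) and 1.27 for LDHC (1.17 to 1.36). Against control cluster 4 the ratios were -3.76 for HK2, -4.23 for GPI, -1.12 for GAPDHS, 0.11 for PGAM2 and 2.33 for LDHC. The signs were those of the whole class except for PGAM2 against cluster 4. The size of the GPI and LDHC ratios thus depended on which control cluster was taken.

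The named spermatocyte and spermatid clusters were ordered by the summed level of elongating spermatid markers. The ZEA clusters were 16 (6187 CPM of these markers), 19 (11285) and 18 (21419). Those of the control library ran from cluster 5, the late spermatocyte-like one (2577), through clusters 7 (10074), 4 (16052) and 3 (25230) to cluster 2 (35194). GPI stood at 26.2, 128 and 428 CPM along the ZEA clusters and at 48.6, 137, 491, 862 and 714 CPM along the control clusters. ZEA cluster 19, whose marker sum lies just above that of control cluster 7, thus had a GPI level close to that cluster's 137 CPM.

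LDHC along the same order was 487, 260 and 58.4 CPM in the ZEA clusters and 1480, 202, 96.6, 68.4 and 95.3 CPM in the control clusters. HK2 was 2.12, 15.4 and 39.2 CPM in the ZEA clusters and 4.29, 6.57, 28.7, 79.1 and 90.8 CPM in the control clusters. For LDHC the ZEA cluster with the lowest marker sum had the highest level and the one with the highest marker sum the lowest level, and for HK2 and GPI the order was the reverse.

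GAPDHS differed from these. It was 532, 567 and 754 CPM along the ZEA clusters and 153, 926, 1153, 1538 and 3609 CPM along the control clusters, so all 3 named ZEA clusters were below all 4 named control spermatid clusters in GAPDHS. This does not hold over the unnamed clusters. Control cluster 0 (863 cells), which scored highest for round spermatids and had an elongating marker sum of 8093 CPM, had GAPDHS at 480 CPM, LDHC at 394 CPM and GPI at 107 CPM. Its GAPDHS was below that of all 3 named ZEA clusters, and ZEA cluster 1 (33 cells) stood at 2054 CPM. PGAM2 was 909, 629 and 659 CPM in the ZEA clusters and 1316, 1051, 840, 886 and 1885 CPM in the control clusters. These are descriptions of 8 clusters whose making used the marker genes, and no test was made on them.

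**Figure D4:**
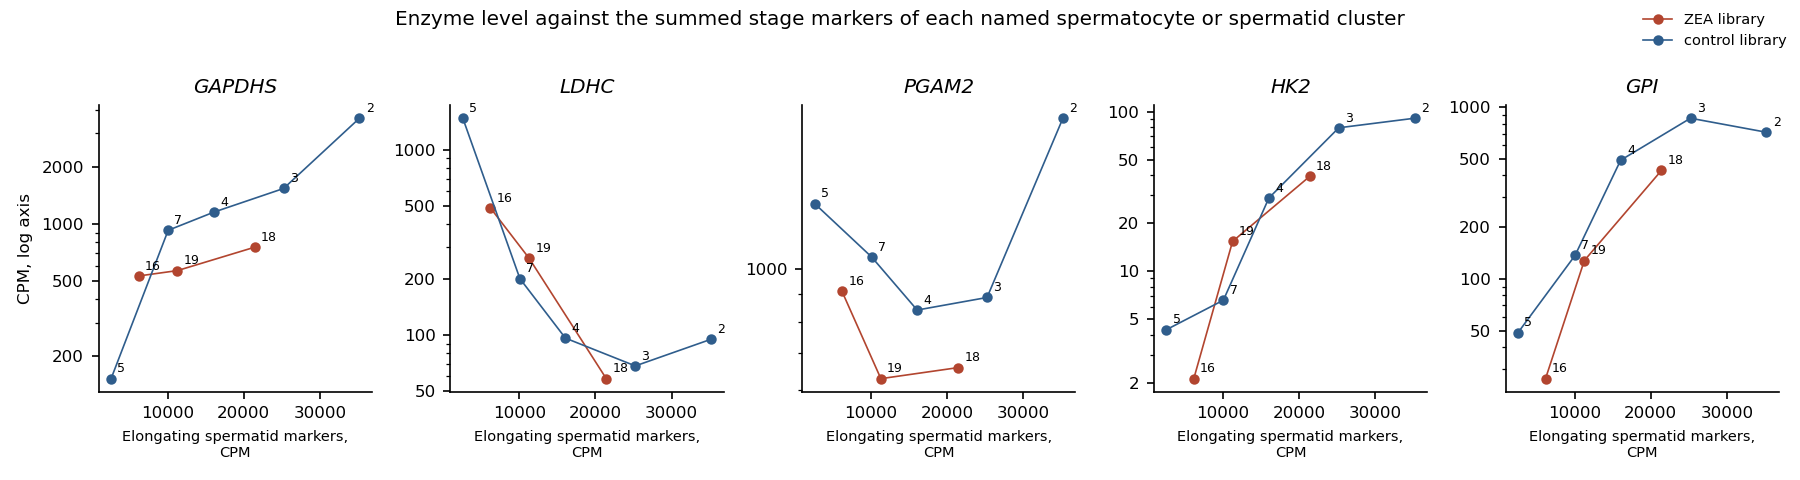
Level of each enzyme in CPM (log axis) against the summed elongating spermatid markers of each named spermatocyte or spermatid cluster (CPM), red for ZEA and blue for control clusters, with cluster numbers beside the points. GAPDHS of the 3 ZEA clusters (532 to 754) lies below that of control clusters 7, 4, 3 and 2 (926 to 3609), while LDHC and GPI of ZEA cluster 19 lie near control cluster 7. Unnamed clusters, among them control cluster 0 with GAPDHS at 480, are not drawn.

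In elongating spermatid-like cells all 5 enzymes had negative log2 ratios of ZEA over control. HK2 stood at 40.0 CPM in ZEA and 81.0 CPM in control cells (-1.02, -1.35 to -0.70), GPI at 437 CPM in ZEA and 838 CPM in control cells (-0.94, -1.04 to -0.84) and GAPDHS at 794 CPM in ZEA and 1874 CPM in control cells (-1.24, -1.31 to -1.17). PGAM2 stood at 686 CPM in ZEA and 1048 CPM in control cells (-0.61, -0.69 to -0.53). LDHC stood at 57.9 CPM in ZEA and 72.8 CPM in control cells (-0.33, -0.61 to -0.06), and neither level was above the somatic ones of its library in CPM.

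Past 2-fold in elongating cells were 2 of 5, HK2 and GAPDHS, both lower, against 18.9% of 7285 genes in either direction and 6.11% lower. The median was -0.94 over the enzymes and 0.15 over all genes. The class was again made of different clusters, cluster 18 in the ZEA library (904 cells) and clusters 3 (892 cells) and 2 (706 cells) in the control library. Median depth was 1791 UMIs in ZEA and 7292 in control cells, elongating markers summed to 21668 CPM in ZEA and 26843 CPM in control cells, and peritubular myoid markers to 216 CPM in ZEA and 10.1 CPM in control cells, 7 of 8 being detected in each with MYL9 at 0. Whether these move the ratios was not tested. GAPDH, in contrast, was higher in ZEA elongating cells, with 17.4 CPM in ZEA and 3.80 CPM in control cells (2.20, 1.55 to 2.83).

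**Figure D5:**
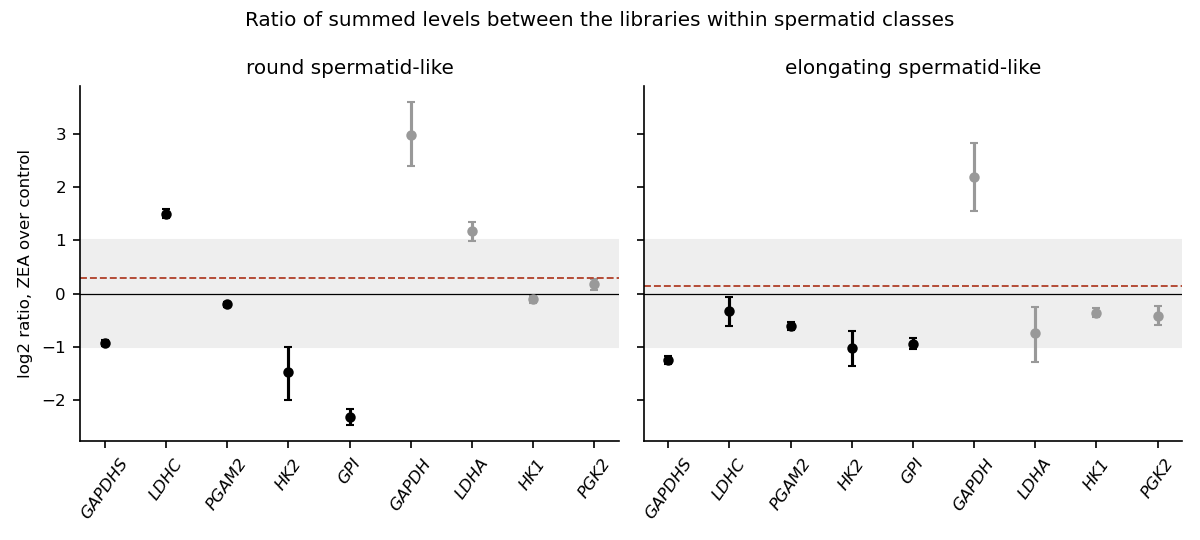
log2 ratio of ZEA over control for the 5 enzymes (black) and partner isoforms (grey) in round and elongating spermatid-like cells, with 95% counting intervals. The shaded band is less than 2-fold and the dashed line is the median of all genes tested (0.30 and 0.15); LDHC lies above the band in round cells, and GPI and HK2 below it.

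Little could be compared in the other classes. Apart from the 2 spermatid classes none had 50 cells in each library, leukocyte-like cells coming nearest with 99 ZEA and 35 control cells. In the single clusters shared by both libraries the picture was uneven. In unnamed cluster 8, with 1545 ZEA and 30 control cells, LDHC stood at 260 CPM (230 to 291) in ZEA and 506 CPM (243 to 930) in control cells. In unnamed cluster 1, with 33 ZEA and 438 control cells, GAPDHS stood at 2054 CPM (1520 to 2716) in ZEA and 886 CPM (802 to 977) in control cells. These run against the direction of the spermatid classes, and they rest on 10 LDHC UMIs in the control cells and on 49 GAPDHS UMIs in the ZEA cells.

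Other genes of the pathway differed between the stages in both directions. Of 69 listed genes for transport, other glycolytic steps, pyruvate entry and the tail scaffold, 56 had a symbol. The spermatid against late spermatocyte comparison had 38 of them, 15 higher and 13 lower by at least 2-fold in spermatids. Over all 10307 genes tested, 34.0% were higher and 39.9% lower, so this count says little by itself. The median log2 ratio of the 38 listed genes was -0.52, against -0.47 over all genes. HKDC1, a further hexokinase, stood at 41.0 CPM in spermatids and 3.75 CPM in late spermatocyte-like cells (log2 ratio 3.45, 3.01 to 3.93). PKM, the step before lactate, stood at 57.6 CPM in spermatids and 6.53 CPM in late spermatocyte-like cells (3.14, 2.80 to 3.50). AKAP3 and AKAP4, anchoring proteins of the fibrous sheath, stood at 504 and 297 CPM in spermatids and at 56.2 and 31.8 CPM in late spermatocyte-like cells (3.16 and 3.22). Among those lower in spermatids, PFKP, a phosphofructokinase, stood at 154 CPM there and 391 CPM in late spermatocyte-like cells (-1.34, -1.40 to -1.29). LDHAL6B, a lactate dehydrogenase copy, stood at 2.07 CPM in spermatids and 27.2 CPM in late spermatocyte-like cells (-3.72, -4.12 to -3.33), and FSIP2, a fibrous sheath interacting protein, at 179 CPM in spermatids and 667 CPM in late spermatocyte-like cells (-1.90, -1.95 to -1.85).

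Between the libraries, 35 of these genes entered in round cells, 5 higher and 2 lower in ZEA by at least 2-fold, and their median was 0.07. Over all 9114 genes tested, 20.6% were higher and 8.32% lower, with a median of 0.30, so this count says little by itself. PDK2, a kinase that holds pyruvate back from the mitochondrion, stood at 3.67 CPM in ZEA and 28.0 CPM in control round cells (-2.93, -3.64 to -2.30), and HKDC1 at 7.35 CPM in ZEA and 22.1 CPM in control cells (-1.59, -2.08 to -1.13). Higher besides GAPDH and LDHA were FSIP1, at 182 CPM in ZEA and 57.1 CPM in control cells (1.67, 1.55 to 1.79), FSIP2, at 1147 CPM in ZEA and 254 CPM in control cells (2.18, 2.12 to 2.23), and the monocarboxylate carrier SLC16A7, at 6.47 CPM in ZEA and 2.50 CPM in control cells (1.37, 0.72 to 2.02).

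In elongating cells 30 pathway genes entered, 5 higher and 2 lower in ZEA, with a median of -0.13. Over all 7285 genes tested, 12.8% were higher and 6.11% lower, with a median of 0.15, so this count also says little by itself. PDK2 was again lower, at 42.4 CPM in ZEA and 116 CPM in control cells (-1.46, -1.78 to -1.15), and PFKM was the other, on few UMIs, at 1.41 CPM in ZEA and 3.88 CPM in control cells (-1.46, -3.78 to 0.17). Higher besides GAPDH were HK3, at 66.4 CPM in ZEA and 28.1 CPM in control cells (1.24, 0.95 to 1.52), and PDHA2, the testis form of a pyruvate dehydrogenase subunit, at 213 CPM in ZEA and 97.4 CPM in control cells (1.13, 0.97 to 1.29). FSIP1 (1.39, 1.14 to 1.64) and FSIP2 (1.55, 1.39 to 1.71) were also higher. FSIP1 and FSIP2 were thus higher and PDK2 lower by at least 2-fold in ZEA cells of both spermatid classes.

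The genes whose level profile was most like that of each enzyme were found over 13 class and library profiles among 5204 genes, as Pearson's r of log2(CPM + 1). These profiles share their library, depth and free RNA, and r is a description. CLPB (0.99), GSG1 (0.99) and DYNLL2 (0.98) were nearest to GAPDHS, STK33 (0.97), AK9 (0.97) and C1orf94 (0.96) to LDHC, and C10orf120, TEX37 and SH3RF2 (each 0.96) to GPI. WDFY1 (0.98), ASRGL1 (0.98) and PLAAT5 (0.97) were nearest to PGAM2. HK2 was less closely matched, by RNF144A (0.91), SAMD4B (0.90) and HKDC1 (0.89). Among the enzymes themselves GAPDHS and GPI were most alike (0.90), and LDHC was unlike both GPI (-0.18) and GAPDHS (0.04).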

How the data were processed

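The values deposited by the authors are raw, whole-number UMI counts for each gene in each barcode, written by Cell Ranger per the file headers, with STAR also named in the submitters' processing notes. Genome build and annotation: not given in the sources used here. Cells with at least 500 UMIs, 200 genes and at most 20% mitochondrial UMIs were kept, and Scrublet (scanpy 1.11.5, seed 0) called 1 doublet in the ZEA library (0.0114%, so that it did not work there) and 198 in the control library (2.82%), which were removed. Counts were scaled to 10000, 2000 variable genes without the energy genes gave 30 components, 15 neighbours and Leiden clusters (resolution 1, no integration).

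A cluster was named when a marker list had a mean standardized level of at least 1, led the next by 0.2 and had at least 3 enriched markers. A cluster with both germ and somatic lists was split once, and Sertoli-like needed FSHR or FATE1. These criteria, the 5 enzymes and all lists were chosen with earlier results of these data known. Of 27 clusters, 18 were named. Clusters whose depth, multiplied by 3, was still under the median of their library were left unnamed unless a marker of theirs was among their top 10 genes.

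Counts were summed per class and library and given as CPM with exact Poisson intervals, ratios as log2 with exact conditional binomial intervals, and shares with Clopper-Pearson intervals, all at 95%. Genes needed 50 UMIs or more over the compared sums, and classes 50 cells or more on each side. A count of 0 was set to 3 counts in a ratio. No test was made, the steps were tested on simulated data, and the alternatives are given at the end. Named were the 5 enzymes, their partner isoforms, up to 4 listed pathway genes per list past 2-fold, and the 3 genes most alike to each enzyme.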

Additional observations from a re-analysis of the deposited data

Results flagged for a closer look

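PGAM2 had opposite signs in the libraries when elongating were set against round spermatid-like cells. Its log2 ratio was -0.25 in the ZEA library and 0.17 in the control library. The difference between these ratios was not tested, since each group has 1 library. PGAM2 stood at 686 CPM in elongating and 815 CPM in round cells of the ZEA library, and at 1048 CPM in elongating and 933 CPM in round cells of the control library. Scaled to the median of all genes, both ratios were positive (0.52 in the ZEA and 0.70 in the control library). With cells of at least 5000 UMIs the control ratio was -0.01.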

How the results depend on the processing

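The counts of enzymes past 2-fold were recomputed under 12 alternatives, and within single clusters shared by both libraries. For round spermatid-like cells, ZEA over control, the count of 3 was within 1.5 times under all but 1 setting, and was 1 within cluster 0 alone. For elongating cells the count of 2 was 1 at Leiden resolution 0.5, at resolution 2, with unnamed clusters in their best class, with cells of at least 2000 UMIs and within cluster 1 alone, and 4 with cells thinned to 500 UMIs. The stage and germ against somatic counts stayed within 1.5 times of their values. Pathway genes past 2-fold in round cells, 7, were 3 when thinned to 500 UMIs, 15 without a minimum of UMIs, 2 within cluster 0 and 4 within cluster 8. In elongating cells, also 7, they were 4 at resolution 2, 11 when thinned, 14 with equal weight per cell and 18 without a minimum. Within single clusters these ratios of ZEA over control changed sign: in round cells GPI was 0.37 in cluster 0 (23 ZEA and 863 control cells) and LDHC -0.96 in cluster 8 (1545 ZEA and 30 control cells), and in elongating cells GAPDHS was 1.21, PGAM2 0.27 and GPI 0.09 in cluster 1 (33 ZEA and 438 control cells). The cause was not tested. LDHC, ZEA over control in elongating cells, kept its sign in 11 of 12 alternatives, and its highest ratio was 0.001. PGAM2, elongating over round, changed sign in 3 of 11 alternatives in the ZEA library and in 1 of 12 in the control library (-0.01 with at least 5000 UMIs), PGAM2, spermatid over late spermatocyte, in 1 of 12 (0.05 at median scaling), and HK2, germ over somatic, in 3 of 10 in the control library. Too few cells were left for ratios of ZEA elongating cells at 5000 UMIs and of control germ over somatic cells at 2000 or 5000 UMIs. No class beside the spermatid ones had enough cells in each library. No paired analysis was possible because each group has 1 library. Low depth limits HK2 most, with 39 UMIs in ZEA round cells.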
